A study of Macaca fascicularis with 10 samples.

Results

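KRTDAP, LORICRIN, FLG2, ALOX12B and ALOXE3, genes of the outermost skin barrier, were followed across 10 Affymetrix Rhesus Macaque arrays of cynomolgus monkey (Macaca fascicularis) cells. They were chosen by symbol, with earlier results of these arrays known, for their high signal on the 2 arrays titled MF. The probe annotation gave 6 probe sets with 1 of these symbols, of 52707 probe sets that are no controls, and 5 genes of 14132 with a probe set of their own. The level of each gene on the MF arrays against the stem cell arrays is therefore a description and was not tested, and the difference between the stem cell groups was tested.

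The MF arrays held RNA of diploid cells that the labels call somatic fibroblasts of female animals, at passages 14 and 15. Parthenogenetic haploid embryonic stem cells (PG-haESCs), which derive from blastocysts without a sperm genome, gave 5 arrays. These were the line MPH1 at passages 8 and 11 (code M1) and at passages 7 and 9 (code M2), and the line MPH2 at passage 4 (code M12). Diploid embryonic stem cells (ESCs) from blastocysts made by intracytoplasmic sperm injection (ICSI) gave 3 arrays, MES1 at passage 12 and MES2 and MES3 at passage 4. The ICSI ESCs and the MF cells were the study's controls. The growth text, which is the same for all samples, describes haploid cells on feeder with Y27635 and Thiazovivin and gives no conditions for the MF cells. Both MF arrays carry the same line name and sample code, and the labels do not say which arrays came from separate cultures or animals. P-values therefore cover the variation among these 10 samples alone, which may be partly technical, and precision is limited by the small number of arrays. Bulk RNA cannot tell fewer cells of a type from less RNA per cell.

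The outer epidermis is made by keratinocytes that leave the basal layer, change their keratins and die as flattened corneocytes. Beneath the plasma membrane of these cells a cornified envelope is built, in which transglutaminases cross-link loricrin, involucrin, small proline-rich proteins and other precursors. Ceramides are then bound to the outside of the envelope, a step that needs oxidation of their linoleate by the lipoxygenases ALOX12B and ALOXE3. LORICRIN and FLG2 lie in the epidermal differentiation complex, a gene cluster that holds most envelope precursors. KRTDAP, FLG2 and LORICRIN are textbook products of suprabasal and granular keratinocytes and are not genes of fibroblasts or of pluripotent cells.

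All signals given are the linear intensities that the MAS5 algorithm assigned to a probe set. Each array had been scaled to a common trimmed mean of 500, and the median probe set lay between 76.8 and 133 on the 10 arrays. A signal at or below its own array's median is called dim, since the table held no detection calls. Levels of different probe sets are not compared with each other, because probe sets differ in how strongly they bind. The MF arrays were more alike than any other pair within a group. Over the 8050 probe sets above a signal of 1000 on both, their median absolute log2 difference was 0.071, against 0.14 to 0.32 for the 13 pairs of arrays within PG-haESC or within ICSI ESC.

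KRTDAP, a small protein secreted by differentiating keratinocytes, had the signals 56628 and 54247 on the MF arrays at passages 14 and 15. On the PG-haESC arrays its signals were 80.0 and 88.3 (MPH1, code M1), 50.6 and 6.99 (MPH1, code M2) and 5.30 (MPH2). The ICSI ESC arrays gave 93.9 (MES1), 9.73 (MES2) and 8.39 (MES3). Every ESC array was dim for KRTDAP, and no ESC array came near the MF arrays. With each ESC signal raised to its own array's median, the MF mean was at least 588-fold higher than in PG-haESCs and at least 583-fold higher than in ICSI ESCs. The same floor is used for every fold written as "at least" from here on. Folds are ratios of geometric means.

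LORICRIN, the glycine-rich main protein of the envelope, had signals of 41861 and 43154 on the MF arrays. The 5 PG-haESC arrays, in the same order, gave 30.9, 8.96, 17.6, 26.2 and 7.75. The ICSI ESC arrays gave 36.9, 36.0 and 71.6. All 8 ESC arrays were dim, and the MF mean was at least 451-fold higher than in PG-haESCs and at least 447-fold higher than in ICSI ESCs. Every ICSI ESC array lay above every PG-haESC array, although all of these signals lay under the array medians. How many of all probe sets separate these groups was not counted, so nothing is read from that order.

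FLG2 encodes filaggrin-2, a large protein of the keratohyalin granules and a member of the S100-fused family. Its signals were 22576 and 23985 on the MF arrays. On the PG-haESC arrays they were 33.1, 4.69, 2.81, 42.0 and 5.89, and on the ICSI ESC arrays 3.78, 3.97 and 4.58. All ESC arrays were again dim. The MF mean was at least 247-fold higher than in PG-haESCs and at least 245-fold higher than in ICSI ESCs.

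**Figure D1:**
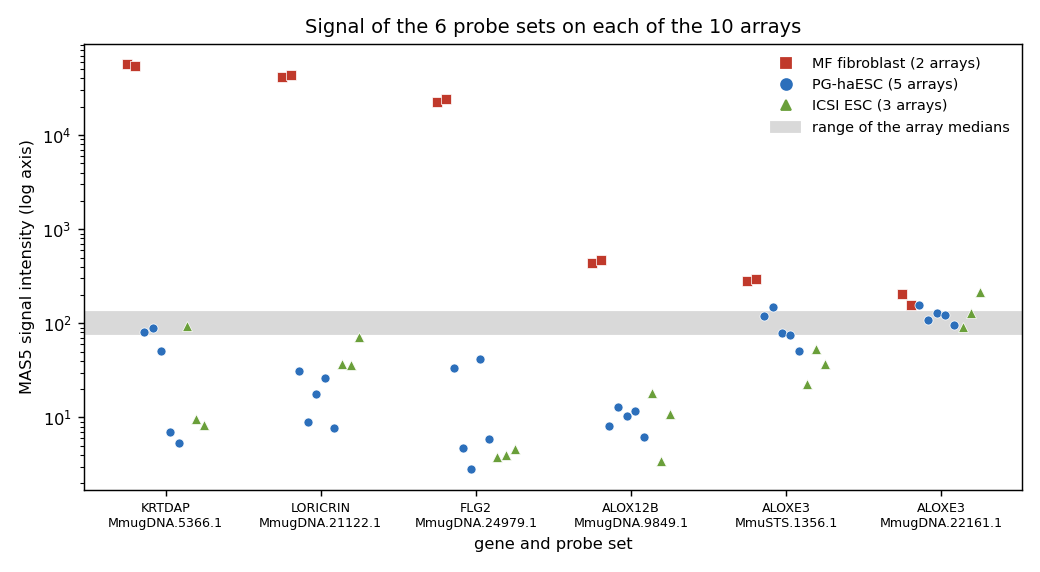
Signal of each of the 6 probe sets (horizontal axis) on every array, as MAS5 intensity on a log axis; squares are the 2 MF arrays, circles the 5 PG-haESC arrays and triangles the 3 ICSI ESC arrays, and the grey band spans the array medians from 76.8 to 133. KRTDAP, LORICRIN and FLG2 lie at 22576 or more on the MF arrays and under 94 on every ESC array, while the second ALOXE3 probe set overlaps between MF and ESC arrays.

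On the MF arrays the signals of the lipoxygenase members lay far closer to the array medians, which does not rank the genes, since probe sets differ in binding. ALOX12B, the enzyme that first oxidises the ceramide-bound linoleate, had signals of 440 and 467 on the MF arrays, 3.63 and 4.24 times the medians of these arrays. It gave 8.05, 13.1, 10.4, 11.7 and 6.21 on the PG-haESC arrays and 18.4, 3.41 and 10.9 on the ICSI ESC arrays. The MF and ESC arrays did not overlap. As all ESC arrays were dim, the bound was at least 4.82-fold higher than in PG-haESCs and at least 4.77-fold higher than in ICSI ESCs.

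ALOXE3, which turns the hydroperoxide made by ALOX12B into an epoxy alcohol, was measured by 2 probe sets that disagreed. The probe set MmuSTS.1356.1.S1_at gave 281 and 296 on the MF arrays. It gave 119, 149, 79.6, 74.2 and 51.0 on the PG-haESC arrays and 22.5, 53.7 and 36.9 on the ICSI ESC arrays. Both MF arrays lay above all ESC arrays, but only 1.88-fold above the highest, and 3 of the 5 PG-haESC arrays were not dim. The MF mean was 3.27-fold that of PG-haESCs and at least 3.03-fold that of ICSI ESCs. The probe set MmugDNA.22161.1.S1_at gave 203 and 158 on the MF arrays. The same probe set gave 155, 109, 128, 123 and 94.9 on the PG-haESC arrays and 91.7, 130 and 218 on the ICSI ESC arrays. Here the MF and ESC arrays overlapped, and MES3 had the highest signal of all. The MF arrays themselves differed by 0.36 on the log2 scale for this probe set, against 0.044 to 0.087 for the other 5.

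Both MF arrays lay above all 8 ESC arrays for 5 of the 6 probe sets. The same was true of 27.9% of all probe sets tested, and, since the genes were chosen for this contrast, nothing is read from the count. The genes were thus split: KRTDAP, LORICRIN and FLG2 were at least 245-fold apart, ALOX12B at least 4.77-fold, and ALOXE3 apart on 1 probe set and not on the other. The second ALOXE3 probe set lay just outside, with a lower MF array 0.73 times the highest ESC array, and the first lay just inside, with 1.88 times.

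Whether the genes differ between stem cells with 1 parental genome and those with both is a comparison the choice of genes did not use. It was tested with limma on log2 signal over all 34140 probe sets that passed the filter, as all 6 did, in 1 model of the 10 arrays with cell line as a random block. KRTDAP, LORICRIN, FLG2 and ALOX12B were dim on all 8 ESC arrays and passed the filter through the 2 MF arrays alone, so for these 4 the test compares signals not resolved from one another. None of the 6 probe sets passed an adjusted p of 0.05, where 0.451% of all probe sets did. An unadjusted p under 0.05 was found for 1 of the 6 and for 2516 of all 34140, so nothing is read from that 1. LORICRIN was the one with the smallest p. Its fitted PG-haESC minus ICSI ESC difference was -1.68 ± 0.62 (SE) on the log2 scale, with a 95% interval from -3.02 to -0.34, an unadjusted p of 0.018 and an adjusted p of 0.47 in limma. It rests on dim signals. For ALOXE3 on MmuSTS.1356.1.S1_at the difference was 1.20 ± 0.56 (95% interval -0.022 to 2.42, limma adjusted p = 0.69), with the lowest PG-haESC array, 51.0, under the highest ICSI ESC array, 53.7. On MmugDNA.22161.1.S1_at it was -0.24 ± 0.42 (interval -1.15 to 0.67), so the probe sets of this gene differed in sign. KRTDAP had a difference of 0.090 ± 1.22 (interval -2.56 to 2.74), FLG2 of 1.19 ± 1.19 (interval -1.40 to 3.78) and ALOX12B of 0.025 ± 1.16 (interval -2.48 to 2.53). These intervals are wide and do not show that the stem cell groups are alike in these genes. KRTDAP was uneven within both groups, with 3 PG-haESC arrays at 50.6 to 88.3 and 2 under 7, and with MES1 at 93.9 and the other 2 ICSI ESC arrays under 10. All of these values were dim.

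The rest of the pathway was followed with 6 lists of genes that are no members, ordered by role: envelope proteins, cross-linking and processing enzymes, barrier lipid genes, suprabasal keratins and desmosome genes, basal keratinocyte genes, and transcription factors of keratinocyte differentiation. Of the 137 genes on these lists 78 had a probe set and 73 passed the filter. In MF cells against PG-haESCs 61 of the 73 were higher at an adjusted p under 0.05 and none was lower, and none was lower at an unadjusted p under 0.05 either. Of all 11676 genes tested, 17.2% were called higher and 23.0% lower. In MF cells against ICSI ESCs 57 of the 73 were called higher, where 17.0% of all genes were, and none lower at either threshold, where 22.5% of all genes were called lower. The median log2 difference of the 73 genes was 3.85 against PG-haESCs and 3.75 against ICSI ESCs, and that of all genes was -0.056 and -0.075. The filter can favour genes that are high on the MF arrays alone. With the 5 genes that failed it counted too, both MF arrays lay above all ESC arrays for 65 of the 78 genes (83.3%). The same was true of 23.1% of all genes with a probe set. The 78 genes were taken at a probe set that passed the filter where they had one. All genes were taken at their probe set of highest average log2 signal, so these shares differ in rule and the first is not free of the filter. The comparisons share the MF arrays and are not independent. Not all of the pathway followed: CASP14, LELP1, SERPINB12, SPINK6 and SPRR3 did not pass the filter, and 12 genes were not called against PG-haESCs. Of the 78 genes 32 had several probe sets. All probe sets of a gene had both MF arrays above all ESC arrays for 16 of these genes, some did for 14, and none for 2.

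**Figure D2:**
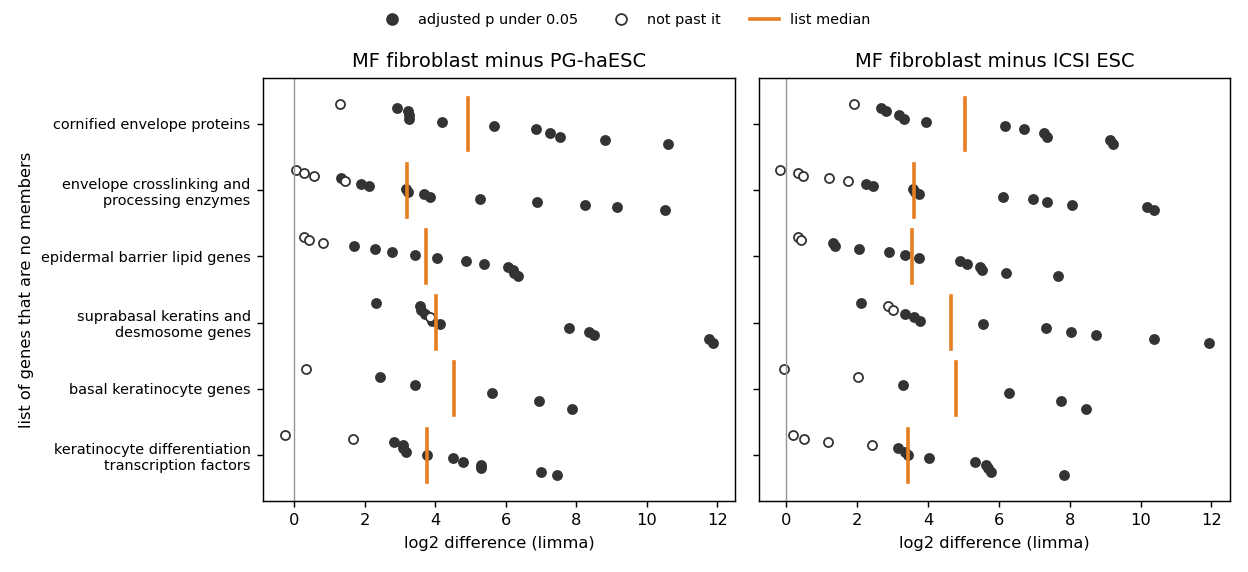
Log2 difference of each tested pathway gene that is no member, MF minus PG-haESC on the left and MF minus ICSI ESC on the right, by list; filled points passed an adjusted p of 0.05 in limma, open points did not, and the bar is the list median. Medians run from 3.20 to 4.92 against PG-haESCs and from 3.42 to 5.05 against ICSI ESCs, and open points reach 3.86 (PKP1) on the left and 3.01 (KRT80) on the right. Differences of genes that are dim on the ESC arrays are fitted values and not bounds.

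Among the envelope proteins 11 of 12 tested genes were higher in MF cells than in PG-haESCs and 11 of 12 than in ICSI ESCs, of 14 with a probe set. CSTA, a cysteine protease inhibitor that is cross-linked into the envelope, had MF signals of 9322 and 9559 and lay between 67.5 and 107 on the ESC arrays. Its log2 difference was 6.86 ± 0.38 against PG-haESCs (limma adjusted p = 1.4e-07). DMKN and SBSN, secreted proteins of suprabasal keratinocytes, had MF signals of 27022 and 26221 and of 16712 and 19663. DMKN was 173-fold higher than in PG-haESCs. SBSN, which was dim on 7 of the 8 ESC arrays, was at least 191-fold higher than in ICSI ESCs. IVL, the envelope scaffold involucrin, had 1642 and 1663 on the MF arrays and 14.3 to 117 on the ESC arrays, at least 17.5-fold higher than in PG-haESCs (adjusted p = 0.0013). CNFN (log2 difference 3.23 ± 0.36) and the elastase inhibitor PI3 (4.20 ± 0.66) were also higher. SPRR1B, a small proline-rich precursor, had 2333 and 1899 against 155 to 481. SPRR3 stayed between 13.1 and 38.2 on all 10 arrays.

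The S100-fused family, to which FLG2 belongs, had 3 other genes with a probe set. TCHH (trichohyalin, a protein of the hair follicle's inner root sheath and of some epithelia) had MF signals of 20436 and 19412, with 3.12 to 62.2 on the ESC arrays. It was at least 211-fold higher than in PG-haESCs (adjusted p = 1.3e-05) and at least 209-fold higher than in ICSI ESCs (adjusted p = 4.7e-05). TCHHL1 gave 1131 and 1236 and was at least 12.6-fold higher than in PG-haESCs (adjusted p = 0.0041). CRNN, cornulin, gave 160 and 175 on the MF arrays, hardly above the 156 of MPH1 at passage 8, and was not called against either group (adjusted p = 0.25 and 0.092). Without the MPH2 array, which tests MF against ICSI ESCs with another estimate of the spread, CRNN had an adjusted p of 0.0499 there. No probe set was annotated to FLG.

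In gene order on the assembly T2T-MFA8v1.1, the stretch from PGLYRP3 to S100A11 holds 46 protein-coding genes, of which 11 had a probe set. This stretch, and the neighbours of the other members, were chosen after values had been seen. LORICRIN and FLG2 lie in it with 36 genes between them. Of the 9 others with a probe set 6 passed the filter, and 5 of these were called higher in MF cells against each stem cell group: SPRR1B, IVL, TCHH, TCHHL1 and S100A11. PGLYRP3, LELP1 and SPRR3 overlapped with the ESC arrays, so genes of the cluster with low and with high MF signal lay side by side. KRTDAP lies next to DMKN and SBSN, both called higher against both groups. ALOX12B and ALOXE3 lie next to ALOX15B, which was not called.

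**Figure D3:**
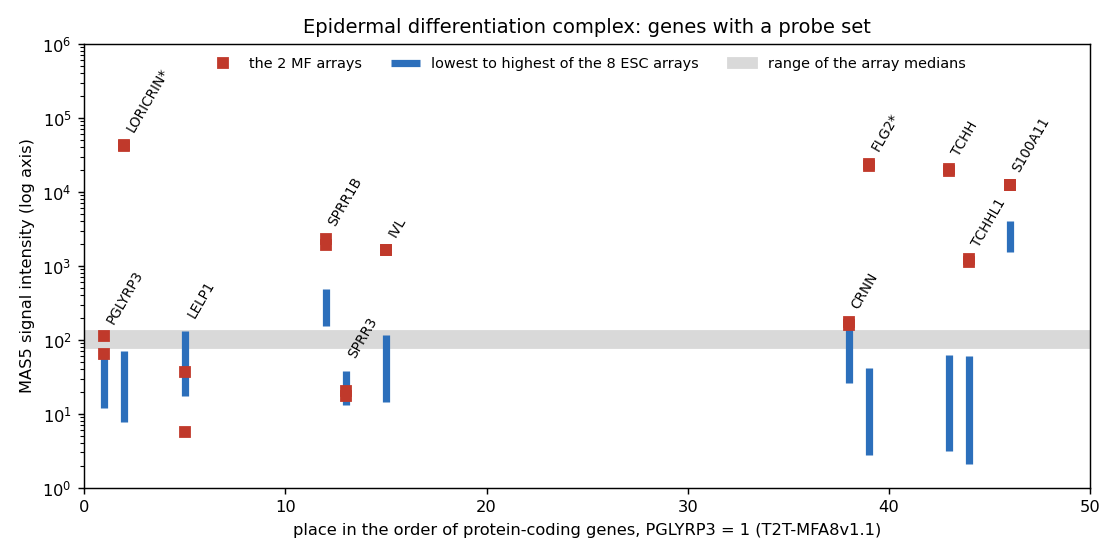
Signal (MAS5 intensity, log axis) of the 11 genes of the epidermal differentiation complex with a probe set, at their place in the gene order; squares are the MF arrays, bars run from the lowest to the highest of the 8 ESC arrays, the grey band spans the array medians and asterisks mark LORICRIN and FLG2. LORICRIN, FLG2, TCHH and TCHHL1 exceed 1000 on the MF arrays with ESC arrays under 72, while SPRR3 and LELP1 remain under 133 everywhere.

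Of the enzymes that cross-link and process the envelope and their inhibitors, 12 of 16 tested genes were higher than in PG-haESCs and 11 of 16 than in ICSI ESCs, of 19 with a probe set. TGM1, the membrane-bound transglutaminase that joins loricrin and involucrin, had MF signals of 1104 and 1014 and ESC signals of 28.7 to 156, with a log2 difference of 3.67 ± 0.82 against PG-haESCs (limma adjusted p = 0.0041). ASPRV1, the protease that cleaves profilaggrin, had 34449 and 33021 against 74.4 to 262 and was 300.3-fold higher than in PG-haESCs. The desquamation proteases KLK7, KLK5 and KLK8 were higher by 5.27 ± 0.34, 3.85 ± 0.65 and 2.12 ± 0.26. SPINK5, an inhibitor of KLK5 and KLK7, gave 26151 and 27343 and was at least 284-fold higher than in PG-haESCs. CST6, an inhibitor of cathepsins, gave 36551 and 37317, with 11.3 to 123 on the ESC arrays. BLMH, a peptidase that degrades filaggrin to amino acids, had 7906 and 7192 on the MF arrays and 4701 to 7370 on the ESC arrays, and was not called (log2 difference 0.27 ± 0.24). CASP14, the caspase of the cornifying layers, was dim on both MF arrays (36.7 and 38.2) and reached 169 on MPH1 at passage 11.

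The barrier lipid genes, the list to which ALOX12B and ALOXE3 belong, had 11 of 14 tested others higher than in PG-haESCs and 12 of 14 than in ICSI ESCs. Some that act on the same acylceramides were among them. CERS3, the ceramide synthase for very long acyl chains, had 1467 and 1529 on the MF arrays and was at least 15.9-fold higher than in PG-haESCs (adjusted p = 0.001). CYP4F22, which hydroxylates the fatty acid before linoleate is added, gave 626 and 501 and was at least 5.94-fold higher (adjusted p = 0.007). ABHD5, a co-activator of acylceramide synthesis, was higher by 2.78 ± 0.35 and the elongase ELOVL1 by 3.42 ± 0.33. The lipid transporter ABCA12 gave 1039 and 1021 and was at least 10.9-fold higher (adjusted p = 0.0064). NIPAL4 and LIPM, further genes of the skin's lipid barrier, were at least 20.7-fold and at least 20.8-fold higher, and the ceramidase ACER1 was higher by 4.06 ± 0.80. FABP5, a fatty acid carrier, had 20436 and 21300 on the MF arrays and up to 26710 on the ESC arrays, and was not called (0.28 ± 0.30). UGCG, the glucosylceramide synthase, was not called either (0.42 ± 0.27).

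The lipoxygenase family had 10 probe sets of 6 genes, and both MF arrays lay above all ESC arrays for 5 of them, including 1 of ALOX12B and 1 of ALOXE3. The same was true of 20.2% of all probe sets that are no controls. As the count includes members chosen for this contrast, nothing is read from it. ALOX12 gave 326 and 410 on the MF arrays and up to 274 on the ESC arrays (log2 difference 1.55 ± 0.73 against PG-haESCs, limma adjusted p = 0.13). Against ICSI ESCs its adjusted p was 0.10, and 0.025 without MES1. ALOX15 overlapped, with 113 and 91.3 against 28.4 to 128. Of the 2 probe sets of ALOX15B, 1 separated the MF arrays by 1.27-fold and the other overlapped, and neither was called. ALOX5, a leukocyte enzyme of leukotriene synthesis, had 327 and 257 on 1 of its 3 probe sets and at most 60.8 on the ESC arrays. It was at least 3.07-fold higher than in PG-haESCs (adjusted p = 0.027), which was lost without either MF array (0.11 and 0.078) or without MPH1 at passage 11 (0.057). The call was also lost with quantile normalization (0.053) and without the filter, where another probe set stands for the gene (log2 difference 1.37, adjusted p = 0.47). The other ALOX5 probe sets were dim on both MF arrays and overlapped with the ESC arrays. Against ICSI ESCs ALOX5 was not called (adjusted p = 0.062), though it was without MPH1 at passage 8 (0.047).

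**Figure D4:**
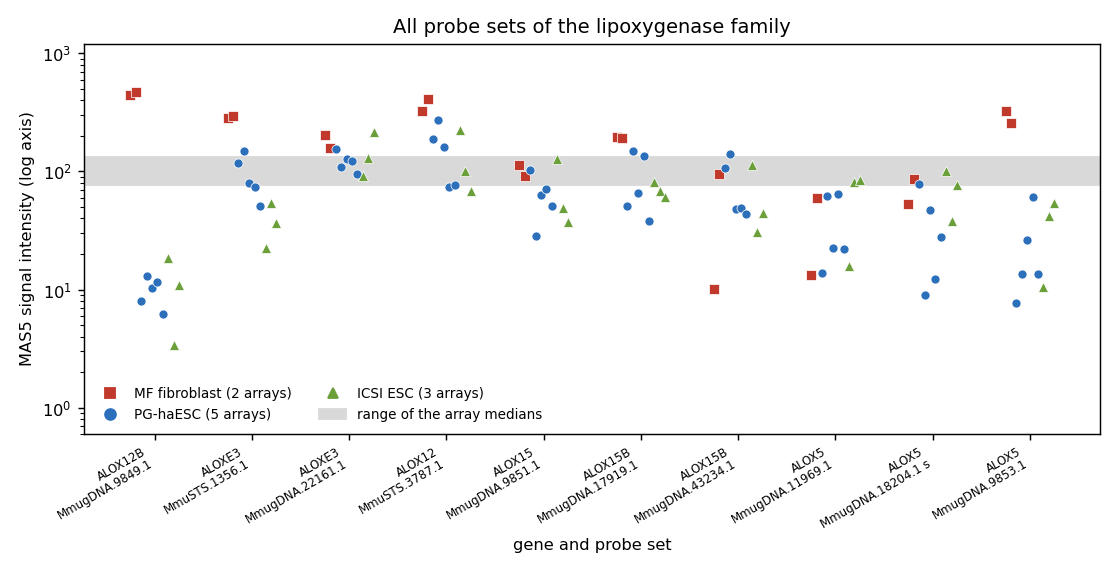
Signal (MAS5 intensity, log axis) of the 10 lipoxygenase probe sets on each array, with squares for MF, circles for PG-haESC and triangles for ICSI ESC arrays and the array medians as a grey band. ALOX12B lies at 440 and 467 on the MF arrays with every ESC array at 18.4 or less, and 5 of the 10 probe sets overlap between MF and ESC arrays. Of all probe sets that are no controls, 20.2% have both MF arrays above all ESC arrays.

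Suprabasal keratins and desmosome genes were higher in 11 of 12 tested cases against PG-haESCs and in 10 of 12 against ICSI ESCs. KRT1 and KRT10, the keratin pair of suprabasal cells, gave 53895 and 53774 and 54024 and 54598 on the MF arrays. KRT1 had 83.4 to 278 on the ESC arrays and a log2 difference of 8.49 ± 0.45 against PG-haESCs, and KRT10 had 2573 to 4430 and a difference of 4.13 ± 0.19. Of the 2 probe sets of KRT10 only this 1 had both MF arrays above all ESC arrays. KRT2, a keratin of the upper epidermis, was at least 541-fold higher than in PG-haESCs with MF signals of 50501 and 51488. KRT9, the keratin of palm and sole epidermis, gave 29482 and 30776. The desmosomal gene DSG1 was at least 114-fold higher than in PG-haESCs, and DSP was higher by 3.55 ± 0.33.

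Genes of the basal layer were measured in part, since no probe set was annotated to KRT5, KRT14 or KRT15. Of 6 tested genes 5 were higher than in PG-haESCs and 4 than in ICSI ESCs. TP63, the transcription factor of stratified epithelia, gave 14270 and 14624 on the MF arrays and 46.9 to 242 on the ESC arrays, with 3 of its 6 probe sets separating the MF arrays. DSC3 was higher by 7.87 ± 0.40. LAMA3 was at least 18.2-fold higher than in ICSI ESCs, and its calls were lost with passage as a covariate (adjusted p = 0.098 against PG-haESCs and 0.077 against ICSI ESCs). ITGB4 was higher by 3.43 ± 0.73 on 1 of its 4 probe sets, and by 1.65 (adjusted p = 0.16) as the mean of its probe sets. DSG3 was called against PG-haESCs at an adjusted p of 0.042 and lost the call in 8 of the 10 fits without 1 array (adjusted p 0.05 to 0.14). ITGA6 was not called (0.32 ± 0.30).

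Transcription factors of keratinocyte differentiation were higher in 11 of 13 tested cases against PG-haESCs and in 9 of 13 against ICSI ESCs. ZNF750, a target of TP63 that drives terminal differentiation, gave 6775 and 7741 on the MF arrays and 8.47 to 112 on the ESC arrays. GRHL1 was higher by 5.28 ± 0.43, CEBPA by 5.30 ± 0.63, GATA3 by 4.79 ± 0.75, OVOL1 by 3.16 ± 0.41 and GRHL3 by 3.09 ± 0.65 against PG-haESCs. HOPX (-0.28 ± 0.27) and CEBPB (1.65 ± 0.71) were not called, and MES1 had a higher CEBPB signal than the MF arrays, 25931 against 12547 and 12638.

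Between PG-haESCs and ICSI ESCs 1 of the 73 pathway genes was called higher and none lower, where 0.574% of all genes were called in either direction. At an unadjusted p under 0.05, 4 of the 73 were higher and 2 lower, where 2516 of all 34140 probe sets tested passed in either direction. Nothing is read from the unadjusted count. The gene called was KLK7, which gave 1207, 708, 1401, 1306 and 898 on the PG-haESC arrays and 286, 428 and 282 on the ICSI ESC arrays. Its log2 difference was 1.68 ± 0.28 (limma adjusted p = 0.028). The call was lost without MES3 (adjusted p = 0.12) and without MPH1 at passage 8 (0.076), 7 (0.067) or 9 (0.052). KLK7 is no member, and none of the 6 member probe sets was called.

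The label of the MF cells was set against marker lists. Of 19 fibroblast genes with a probe set 18 passed the filter, and 6 were higher and 1 lower than in PG-haESCs. COL1A2 and DCN, defining genes of fibroblasts, had MF signals of 63944 and 63905 and of 49727 and 48614, but also 37522 and 39481 on MES1. Neither was called in the model of all 10 arrays (adjusted p 0.11 to 0.15). Without MES1 both were called (COL1A2 0.028 and 0.014, DCN 0.031 and 0.0075, against PG-haESCs and ICSI ESCs). With MES1 kept, some other settings also called them against PG-haESCs, such as arrays as independent samples for COL1A2 (0.033) and the mean of all probe sets for DCN (0.045). VIM gave 35417 and 36028 and overlapped with the ESC arrays. The summed signal of the fibroblast list was 295534 to 300078 on the MF arrays, 40414 to 129006 on the PG-haESC arrays and 60524 to 260470 on the ICSI ESC arrays. Pluripotency genes were lower than in PG-haESCs in 7 of 8 tested cases, with sums of 2633 to 2696 on the MF arrays and 55923 to 89095 on the ESC arrays. COL1A2, DCN and VIM were thus bright on the MF arrays, together with the keratinocyte genes described above. These fibroblast genes were named for the highest MF signal on their list, so their presence there does not test the label. Against ICSI ESCs 7 of the 18 tested fibroblast genes were called higher and 1 lower.

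Many markers of further skin cell types were also high on the MF arrays. Of 16 hair follicle genes tested 13 were higher than in PG-haESCs, and the list summed to 58832 to 59857 on the MF arrays against 1154 to 2423 on the ESC arrays. KRTAP8-1 and KRT25, genes of the hair shaft and inner root sheath, gave 8524 and 8686 and 6192 and 5977. TCHH and PADI3 stand on this list and on the envelope lists as well. Leukocyte genes were higher in 6 of 8 tested cases, with sums of 12436 to 12516 against 469 to 834. LYZ gave 7273 and 6996, PTPRC, the pan-leukocyte gene, 1412 and 1441, and CD1A, a gene of Langerhans cells, 1077 and 1186. Endothelial genes were higher in 4 of 8 cases, with PECAM1 at 2842 and 2823, EMCN at 1747 and 1909 and VWF at 1107 and 1329. Of 5 sebaceous and sweat gland genes tested 4 were higher than in PG-haESCs, among them ELOVL3 (9076 and 9343), AWAT1 (1682 and 1628) and AWAT2 (1137 and 1221). Against ICSI ESCs 3 of these 5 were called higher and 1 was called lower. Adipocyte genes were mixed. Of 5 adipocyte genes 3 were higher and 1 lower, with FABP4 at 8502 and 9113, CIDEA at 1985 and 1976 and LPL at 1222 and 1271. The gene called lower was ADIPOQ, at 402 and 514 on the MF arrays against 1553 to 2089 on the ESC arrays. Its limma adjusted p was 2.4e-05 against PG-haESCs and 1.3e-05 against ICSI ESCs on the probe set used. Of its 3 probe sets 1 had both MF arrays above all ESC arrays. The LPL call (adjusted p = 0.035) was lost in 5 of the 10 fits without 1 array, with adjusted p from 0.053 to 0.12.

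**Figure D5:**
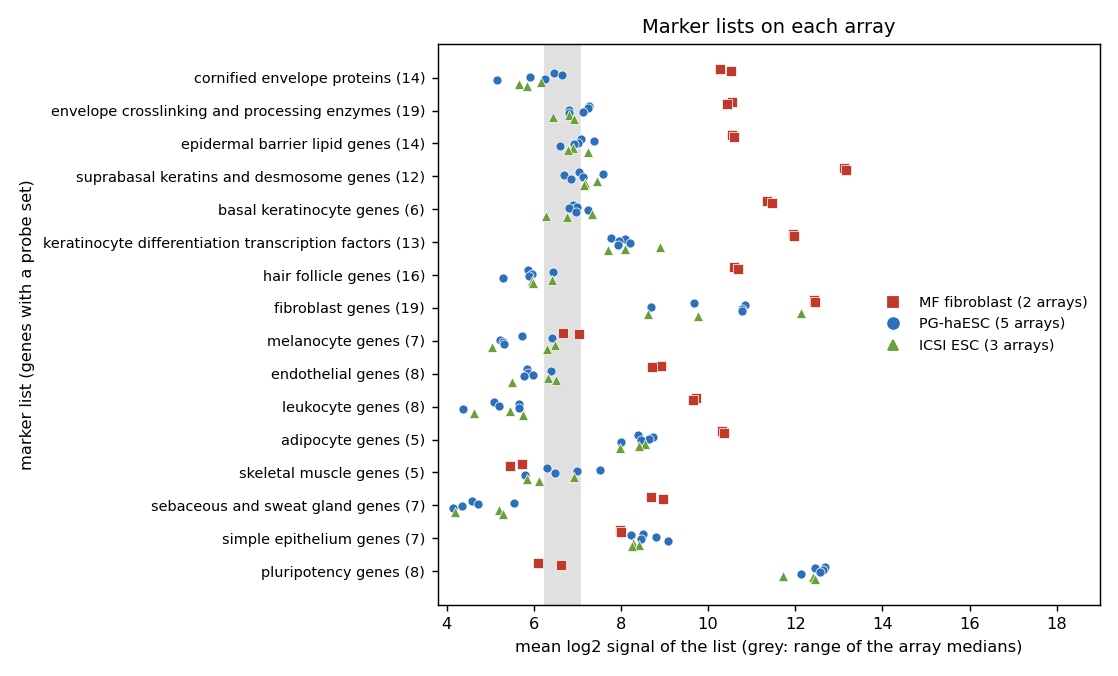
Mean log2 signal of each marker list (number of genes with a probe set in brackets) on every array, with squares for MF, circles for PG-haESC and triangles for ICSI ESC arrays and the range of the array medians in grey. The MF arrays lie right of all ESC arrays for the 6 keratinocyte lists and for the hair follicle, fibroblast, melanocyte, endothelial, leukocyte, adipocyte and sebaceous lists, and left of them for pluripotency, simple epithelium and skeletal muscle genes.

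The melanocyte list was mixed. Among 6 tested melanocyte genes 2 were higher than in PG-haESCs, TYRP1 (692 and 741) and TYR (394 and 404), and MITF was lower (471 and 468 against 2340 to 4962) on the probe set used, though not as the mean of its probe sets (adjusted p = 0.92). PMEL was at 0.64 and 1.18 on the MF arrays. The TYRP1 call was lost without either MF array (adjusted p = 0.067 and 0.072). Simple epithelium genes were higher in 1 and lower in 3 of 7 cases, with EPCAM at 1436 and 1773 and KRT19 at 468 and 565 on the MF arrays, both lower than in PG-haESCs, and KRT18 at 723 and 746, higher. The EPCAM difference from ICSI ESCs had an adjusted p of 0.0098, and 0.051 without the first MF array. Of 4 skeletal muscle genes tested 1 was lower, and TNNC2 (267 and 292), MB (87.1 and 63.3) and MYH2 (63.3 and 43.0) were not called. No measured marker was listed at 0. The 3 pluripotency genes of highest MF signal were NANOG (2083 and 1904, not called), DNMT3B (389 and 363) and SALL4 (59.4 and 114), the last pair lower than in PG-haESCs. Many but not all markers of keratinocytes, hair follicle, leukocytes, endothelium and glands were thus higher on the MF arrays, as were KRTDAP, LORICRIN and FLG2. Against PG-haESCs 13 of 16 hair follicle, 6 of 8 leukocyte, 4 of 8 endothelial and 4 of 5 gland genes were called higher. Of all genes tested 17.2% were. The part of these cell types in the result was not tested. With 1 line of MF cells, cell line, sample source and group cannot be told apart.

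The genes whose pattern over the 10 arrays was most like the mean of the 5 members were sought among 11511 genes outside all lists, with dim signals raised to the array median and Pearson's r as the measure of likeness. The highest 8 were LOC704318, MAMU-DRA, FGFBP1, DAPL1, LOC703883, LOC704430, KRTAP3-3 and CLCA2, each with r of 0.9997. They had MF signals from 6859 to 14700 and ESC signals of at most 126. With 2 MF arrays far above 8 others, r follows from that gap alone and is a description without a p. It exceeded 0.99 for 174 genes and 0.95 for 661.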

How the data were processed

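The deposited values were signal intensity per probe set, which the authors made with MAS5, per the submitters' processing notes, which name no release. From the values, the mean of each array, trimmed by 2% at either end, was 500. Array files with probe-level data were not used here. Of 52865 probe sets 158 controls were left out, and 34140 above their own array's median on at least 2 arrays were tested. Symbols came from the probe annotation supplied (24956 probe sets with 1 symbol, 361 with several, none of these a member's, and 27390 with none). Each gene with several tested probe sets was taken at the one with the highest average log2 signal. Gene order came from RefSeq's T2T-MFA8v1.1. No sequences are shown.

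log2 signal of all 10 arrays was fitted with limma 3.58.1 in R 4.3.3 with a mean for each of 3 groups, the line as a random block (statmod 1.5.0, correlation 0.29), a variance trend and two-sided tests. P-values were adjusted by Benjamini-Hochberg over all probe sets tested. The titles name 1 line for the codes M1 and M2, and code as the block was an alternative. Lower bounds take each dim signal at its array's median. On simulated data with 200 changed probe sets among 34140, the method found 16% of 2-fold and 45% of 4-fold changes between PG-haESCs and ICSI ESCs, with 7 false calls.

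Members, lists and tests were chosen with earlier results of these data known. The named genes are all members, up to 6 of each pathway list with the smallest p in MF against PG-haESC, every lipoxygenase and S100-fused gene, up to 3 of each other list with the highest MF signal, and the 8 genes most like the members. Beyond it, IVL, SPRR1B, SPRR3, TGM1, BLMH, CASP14, CYP4F22, ABCA12, FABP5, UGCG, HOPX, CEBPB, PMEL, ADIPOQ, PADI3, SERPINB12, SPINK6, LELP1 and the genes of the gene-order blocks were named after their values were seen. Alternatives changed the filter, scaling, offset, block, variance trend, probe set choice, covariates and arrays. Figures were drawn with matplotlib 3.10.9.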

Additional observations from a re-analysis of the deposited data

Results flagged for a closer look

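KLK7, a desquamation protease that is no member, was called between the stem cell groups, with a PG-haESC minus ICSI ESC log2 difference of 1.68 by the limma test of that difference. The call was lost in several alternatives, such as arrays averaged per line (limma adjusted p = 0.23), centring on array medians (0.37) and no variance trend (0.17). One PG-haESC array, MPH1 at passage 11, stood apart from the other 4 for ASPRV1, with a signal of 262 against 74.4 to 105. The same array stood apart for KRT1, with 278 against 116 to 149. Among 77 groups of 5 PG-haESC arrays examined, these 2 were the ones past Dixon's 95% critical value, and chance flags about 1 in 20 such groups.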

How the results depend on the processing

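None of the 6 member probe sets was called between PG-haESCs and ICSI ESCs in the main analysis or in any of the 22 or 23 alternatives that gave it a value, and 5 of the 6 kept both MF arrays above all ESC arrays in the 4 alternatives that could change this. Raising dim signals sets KRTDAP, LORICRIN, FLG2 and ALOX12B to the array medians on all ESC arrays, so that all 4 give -0.056 there, by construction and not as a measure of the gene. The sign of some differences changed: KRTDAP's was -0.44 with arrays averaged per line, -0.042 with the 75th percentile filter and -0.13 with passage as a covariate; ALOX12B's was -0.12 with arrays averaged, -0.041 with an offset of 32 and -0.077 with passage; ALOXE3's (MmugDNA.22161.1.S1_at) was 0.48 as the mean of its probe sets. Leaving out each array gave -0.52 to 1.39 for KRTDAP, 0.76 to 1.60 for FLG2, -0.65 to 0.60 for ALOX12B and -0.51 to 0.092 for this ALOXE3 probe set.

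Pathway genes called higher in MF cells ran from 48 to 63 against PG-haESCs and from 46 to 62 against ICSI ESCs over the alternatives, the lowest of each with passage as a covariate. Passage also gave 1 gene called lower against ICSI ESCs (CEBPB), 7 barrier lipid genes against ICSI ESCs, 3 basal genes and 7 transcription factors against PG-haESCs; the mean of all probe sets gave 2 basal genes against ICSI ESCs. MF arrays have the highest passages, so that covariate overlaps with the group. Between PG-haESCs and ICSI ESCs the count higher was 3 with independent arrays, 2 with code as the block, dim signals raised, no filter or passage, and 0 with arrays averaged, centring, only the groups compared or no trend; without 1 array it was 0 to 3, and the count lower 0 to 1.

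Among named genes that are no members, passage reversed DCN (-0.51 against PG-haESC, -0.72 against ICSI ESC), VIM (-0.82, -1.20), MYH2 (-1.88, -0.85), NANOG (-0.32, -0.40), TNNC2 (-0.099 against PG-haESC) and ITGA6 (0.45 against ICSI ESC). Centring on array medians reversed ITGA6 (-0.0015), NANOG (-0.055, -0.047) and TNNC2 (-0.11). Quantile normalization reversed TNNC2 (-0.20) and ITGA6 (0.17). The mean of all probe sets reversed ITGA6 (0.75) and MITF (0.24) against ICSI ESC, and raising dim signals reversed MB (0.024). Without 1 array, TNNC2 ran from -0.23 to 0.44 and ITGA6 against ICSI ESC from -0.24 to 0.098. Calls were also lost against PG-haESC with arrays averaged per line for PTPRC (adjusted p = 0.073), TYR (0.080), TCHHL1 (0.053), TYRP1 (0.11), ALOX5 (0.082), KRT18 (0.093), LPL (0.18) and DSG3 (0.17), and with passage for LAMA3 (0.098), PTPRC (0.060), TYR (0.070), TYRP1 (0.29), EPCAM (0.11), LPL (0.067) and DSG3 (0.27). Against ICSI ESC, passage ended those of CD1A (0.086), CERS3 (0.13), PECAM1 (0.057), LAMA3, PTPRC, TYR, TYRP1 and EPCAM, and averaging those of TYR, TYRP1 and VWF (0.060). With the mean of all probe sets, ITGB4, KRT18 and MITF were not called against PG-haESC (0.16, 0.15 and 0.92). The cause of these changes was not tested. MF against ICSI ESC with only those arrays could not be fitted with a line block. No paired analysis was possible because the replicate numbers are accession order and pair no samples. Depth on arrays is signal over background, which is not known here, so differences among dim signals are not resolved.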
